A study of Cavia porcellus with 35 samples.

Results

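The genes described here are 10 components of the circadian clock, taken by symbol from tables of read counts in the medial prefrontal cortex (mPFC) of juvenile guinea pigs. They are the activators ARNTL (also called BMAL1) and CLOCK, the period genes PER1, PER2 and PER3, the cryptochromes CRY1 and CRY2, the nuclear receptors NR1D1 and NR1D2 (REV-ERB alpha and beta), and the output factor DBP. They were 10 of the 12100 genes listed in at least 1 of 4 tables. All 10 were listed in F1 females, F2 females and F1 males and 9 in F3 females, where DBP was not analysed here, and each listed gene had enough reads to be tested.

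Betamethasone, a glucocorticoid drug abbreviated here as sGC, or saline was given to pregnant guinea pigs in several courses late in gestation. The F1 animals are their offspring, and the F2 and F3 generations were bred down the male line, F1 and F2 males having been mated with females outside the experiment. Tissue was taken at postnatal day 40 in all groups. Each library came from the mPFC punch of 1 animal: 4 control and 4 sGC females in each generation, and 5 control and 6 sGC F1 males. For the analysis of females, the paper took no more than 1 animal of each sex per litter. Whether males shared a litter with each other or with the F1 females is not given in the sources used here. Animals were treated as independent. The time of day at which the tissue was taken is not given in the sources used here.

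In the mammalian clock, the ARNTL and CLOCK proteins bind DNA together and drive transcription of the PER and CRY genes. The PER and CRY proteins return to the nucleus and inhibit the pair, which closes a loop that takes about a day. REV-ERB receptors repress ARNTL, and DBP, which is driven directly by the activator pair, carries the rhythm to other genes. Transcripts of ARNTL and of PER, DBP and REV-ERB genes therefore peak at different times of day in most tissues, and PER1 and PER2 also respond to glucocorticoids and to neuronal activity.

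Libraries held between 12819964 and 19551079 assigned reads in females and between 25697953 and 31763585 in males. Levels are given as CPM, reads scaled to a fixed library size, after TMM normalization, which scales each library within its own table. Transcripts of the cortical excitatory marker SLC17A7 averaged between 429 and 1472 CPM in the control groups, while summed markers of the hypothalamic paraventricular nucleus, a region that part of the sample descriptions names, lay between 6.37 and 19.2 CPM in all 35 animals. Marker levels of cell types moved with treatment in several groups. In F1 females the summed level of 6 pan-neuronal markers was 4877 to 6243 CPM in controls and 7101 to 10703 CPM in sGC animals, whereas 5 microglial markers summed to 240.4 to 294.5 and 169.7 to 191.3 CPM. The neuronal markers did not all move alike, since 3 of the 6 were higher and 1 was lower in sGC animals at an FDR under 0.05. Of the 5 microglial markers, 4 were lower. Of all genes, 9.21% were higher and 7.33% lower in sGC F1 females at this FDR. In the same females, 7 markers of striatal medium spiny neurons summed to between 561 and 2605 CPM in controls and between 208.4 and 566.7 CPM in sGC animals, and 4 of the 7 were lower in sGC animals at an FDR under 0.05. Differences of this kind bear on every comparison of bulk tissue, in which fewer cells of a type and less RNA per cell cannot be told apart.

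Levels of the 10 genes differed widely. NR1D1 was listed with the most reads, between 3625 and 9468 per library, and PER3 with the fewest, between 11 and 38 in F1 females, F2 females and F1 males. In the F3 table, however, PER3 had 122 to 253 reads. With the libraries of all tables placed on a common TMM scale, the F3 controls had 11.7 times the PER3 level of the lowest control group, the F2 females, and did not overlap the next group. The F3 controls lay 3.22 above the mean of the other tables on the log2 scale, a distance that 0.411% of 10949 genes in all 4 tables matched or exceeded. NR1D1 was highest in F3 females as well, by 0.59 on the same scale, and CRY2 lowest, at -0.55, distances that 24.7% and 27.5% of genes matched or exceeded. For PER1, PER2, CRY1, ARNTL and NR1D2, neighbouring control groups overlapped in the order of their levels throughout, and the highest and lowest groups differed by between 1.16 and 1.53 times. Each group has a table of its own, and whether all 4 were made with the same annotation is not given in the sources used here, so that group and table cannot be told apart in these levels.

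**Figure D1:**
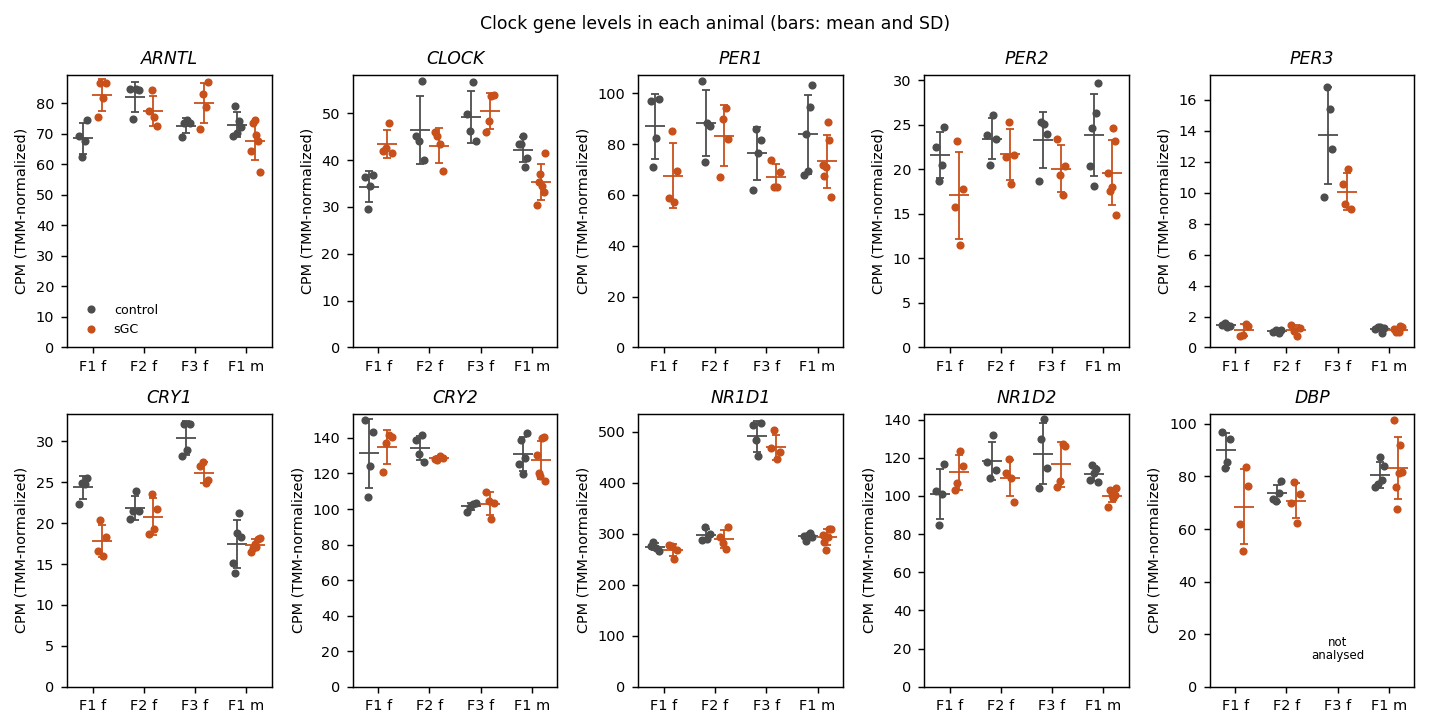
Level of each clock gene in every animal, in TMM-normalized CPM (vertical axis, from 0), for F1, F2 and F3 females (F1 f, F2 f, F3 f) and F1 males (F1 m), with control animals in grey and sGC animals in orange. Points are animals and bars the mean and SD. CRY1 in F1 females shows the groups apart, at 22.3 to 25.6 CPM in controls and 16.0 to 20.3 CPM in sGC animals, and PER3 is far higher in the F3 table than in the others.

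In F1 females, whose mothers had received sGC, both activators rose and a cryptochrome fell, with the period genes and DBP lower in mean but short of the threshold. By edgeR's quasi-likelihood test, 3 of the 10 clock genes passed an FDR of 0.05, against 16.5% of all 11268 genes tested. ARNTL and CLOCK were 2 of 10 higher in sGC animals (9.21% of all genes) and CRY1 was 1 of 10 lower (7.33%). The sGC animals did not overlap the controls for 3 of 10 clock genes and for 23.2% of all genes. The median absolute log2 fold change was 0.34 over the clock genes and 0.17 over all genes.

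ARNTL, the obligate activator of the loop, stood at 69.5, 62.4, 67.6 and 74.6 CPM in the 4 controls and at 75.6, 86.5, 81.8 and 86.8 CPM in the 4 sGC females. Every sGC female lay above every control, though narrowly for the lowest of them. The log2 fold change was 0.27 (SE 0.07, FDR = 0.0340). CLOCK, its partner, stood at 36.5, 29.6, 34.5 and 36.9 CPM in controls and at 41.9, 42.6, 47.8 and 41.4 CPM in sGC females, again without overlap. Its log2 fold change was 0.34 (SE 0.08, FDR = 0.0297). Both activators were thus higher in each sGC female than in any control.

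CRY1, a repressor of the activator pair, was measured at 22.3, 24.9, 24.8 and 25.6 CPM in controls and at 16.6, 20.3, 16.0 and 18.3 CPM in sGC females. All 4 sGC animals lay below all 4 controls, and the level fell by 27.0% (log2 fold change -0.45, SE 0.09, FDR = 0.0142). CRY2, the second cryptochrome, averaged 131 ± 19 CPM in controls and 135 ± 9.8 CPM in sGC females (SD, n = 4 each). Its log2 fold change was 0.04 with a 95% interval from -0.20 to 0.28, so that a change as large as that of CRY1 lay outside the interval. Whether the 2 cryptochromes differed from each other in their response was not tested.

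None of the 3 period genes passed the threshold in F1 females, where 1 of them had an unadjusted p under 0.05, as had 3858 of all 11268 genes. PER1 stood at 97.0, 70.9, 82.5 and 97.6 CPM in controls and at 58.6, 85.0, 57.2 and 69.2 CPM in sGC females, and 3 of 4 sGC animals lay below all controls. The log2 fold change was -0.37 (SE 0.15, FDR = 0.114). PER2 averaged 21.6 ± 2.6 CPM in controls and 17.1 ± 4.9 CPM in sGC females (log2 fold change -0.34, SE 0.19, FDR = 0.237). PER3, with 11 to 25 reads per library, had a log2 fold change of -0.37 whose 95% interval ran from -0.98 to 0.24. The F1 females of each group overlapped for all 3 period genes.

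DBP, a transcription factor of the PAR bZIP family whose transcription is driven by the activator pair, stood at 96.9, 83.3, 85.5 and 94.1 CPM in F1 female controls. The sGC females had 62.1, 51.8, 83.5 and 76.4 CPM, 3 of them below all controls and the remaining animal level with the lowest control. The log2 fold change was -0.39 (SE 0.14, FDR = 0.0812). NR1D1 averaged 275 ± 7.6 CPM in controls and 268 ± 12 CPM in sGC females (SD, n = 4 each), with a 95% interval of its log2 fold change from -0.15 to 0.08. NR1D2 differed by 0.15 on the log2 scale (SE 0.10, FDR = 0.310), with overlapping groups.

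**Figure D2:**
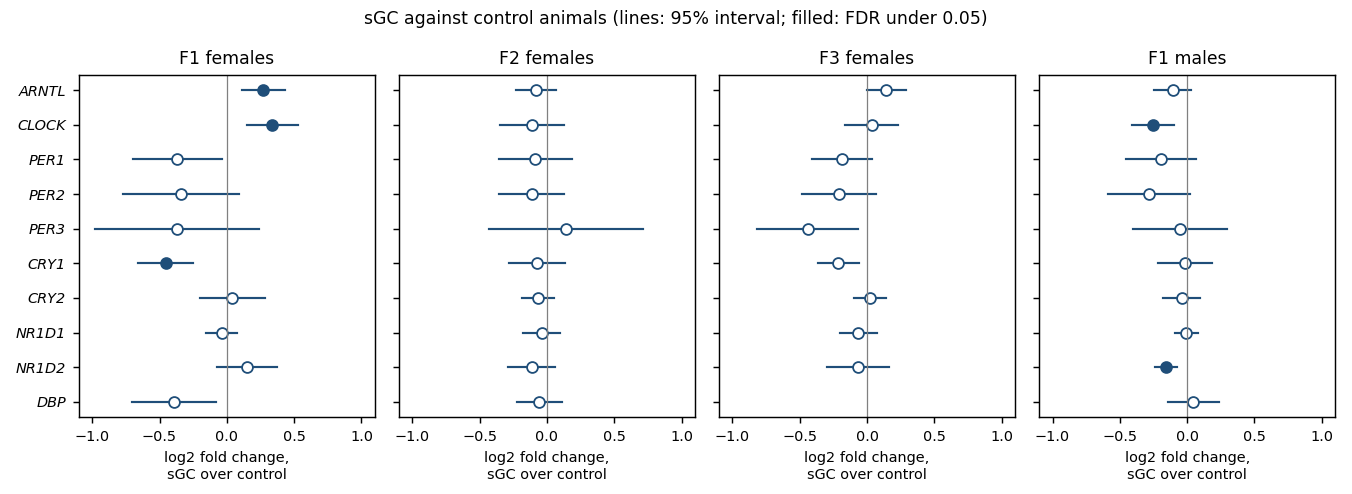
Log2 fold change of each clock gene, sGC over control animals (horizontal axis), in F1, F2 and F3 females and F1 males. Circles are estimates of edgeR's quasi-likelihood fit, lines their 95% intervals, and filled circles have an FDR under 0.05. CRY1, ARNTL and CLOCK are filled in F1 females and CLOCK and NR1D2 in F1 males, where CLOCK lies on the other side of 0.

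The calls in F1 females depended on single animals. When each of the 8 was left out in turn, CRY1 kept an FDR under 0.05 in 7 of 8 fits, CLOCK in 4 and ARNTL in 3. Without control replicate 3 none of the 3 genes passed (FDR = 0.0522 for CRY1, 0.0765 for CLOCK and 0.0858 for ARNTL, edgeR quasi-likelihood test), with 4 of 10 at an unadjusted p under 0.05, and without sGC replicate 4 only CRY1 did. With all 8 animals, 5 of 10 clock genes had an unadjusted p under 0.05, beside 3858 of all 11268 genes. The pan-neuronal, astrocytic and microglial marker sums did not overlap between the same 8 females, and the part of these markers in the clock gene differences was not tested.

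Because a ratio of 2 genes within a library does not depend on its scaling, reads of the repressors and of DBP were also set against those of ARNTL. In F1 females the CRY1 to ARNTL ratio was 0.321 to 0.399 in controls and 0.195 to 0.235 in sGC animals. The PER1 to ARNTL ratio averaged 1.27 ± 0.11 and 0.813 ± 0.12 and the DBP to ARNTL ratio 1.31 ± 0.064 and 0.830 ± 0.18 (control and sGC, SD, n = 4 each). The PER2 to ARNTL ratio averaged 0.315 ± 0.016 and 0.206 ± 0.052. For each of these 4 ratios every sGC female lay below every control. The other 3 ratios computed overlapped, NR1D1 to ARNTL at 3.57 to 4.56 in controls and 3.07 to 3.67 in sGC females, NR1D2 to ARNTL at 1.35 to 1.56 and 1.23 to 1.51, and CLOCK to ARNTL at 0.501 ± 0.022 and 0.527 ± 0.051 (mean and SD). ARNTL itself did not overlap between these groups and so lowers each ratio in sGC females. Set against ARNTL in the same way, 36.8% of all 11267 other genes did not overlap, nearly all of them lower in sGC females (35.7%). In F2 females and F1 males the groups overlapped for all 7 clock gene ratios, beside 6.22% and 6.03% of all genes without overlap, and in F3 females for all but CRY1 to ARNTL, beside 13.6%. These ratios are given as a description, without a test.

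**Figure D3:**
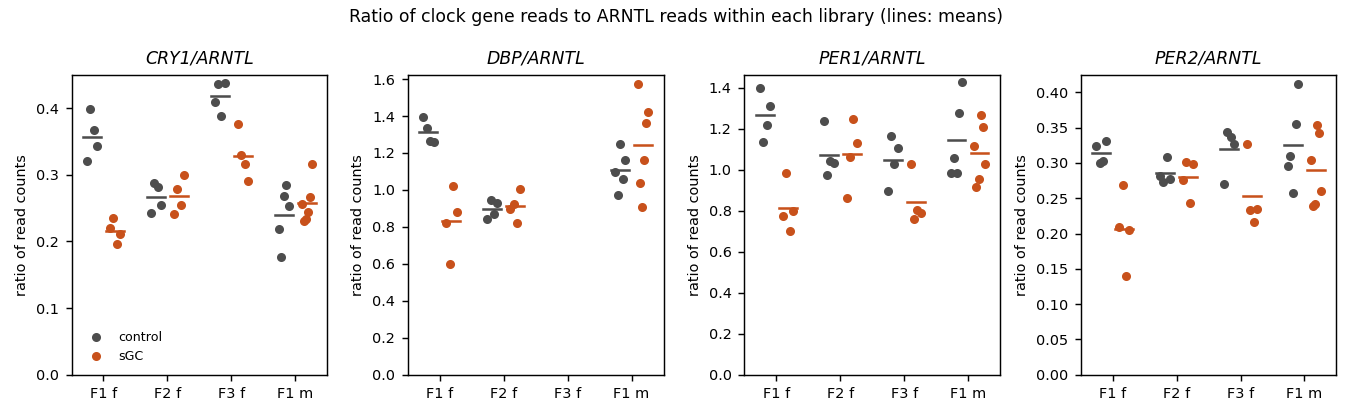
Ratio of CRY1, DBP, PER1 and PER2 reads to ARNTL reads within each library (vertical axes, from 0), for F1, F2 and F3 females and F1 males, control in grey and sGC in orange, with lines at group means. In F1 females the sGC animals lie below the controls in these 4 panels, an arrangement found for 35.7% of all genes set against ARNTL, while the ratios of NR1D1, NR1D2 and CLOCK, not drawn, overlapped. In F3 females the sGC animals lie below the controls in the panel of CRY1, where the ratio was 0.388 to 0.437 in controls and 0.291 to 0.377 in sGC animals. DBP was not analysed in F3 females.

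In F1 males, also the offspring of treated mothers, the activator CLOCK and the receptor NR1D2 fell, and the cryptochromes and DBP lay close to the controls. Of the 10 clock genes, 2 passed, both lower in sGC males, against 9.22% of 11524 genes in either direction and 3.48% in this one, and 1 was without overlap between the groups, against 6.26% of all genes. CLOCK stood at 43.4, 43.5, 45.1, 38.5 and 40.4 CPM in the 5 controls. The 6 sGC males had between 30.4 and 41.6 CPM, with a median of 34.8 CPM, and 5 of them lay below every control. The log2 fold change was -0.26 (SE 0.07, FDR = 0.0423).

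NR1D2, a repressor of ARNTL, stood at 108, 116, 112, 114 and 107 CPM in male controls and between 94.0 and 104 CPM in sGC males, with a median of 101 CPM. All 6 sGC males lay below all 5 controls, with a log2 fold change of -0.16 (SE 0.04, FDR = 0.0193). Its paralog NR1D1 averaged 295 ± 5.7 CPM in 5 controls and 294 ± 15 CPM in 6 sGC males, with a 95% interval of the log2 fold change from -0.09 to 0.08. CRY1, which fell in F1 females, averaged 17.5 ± 2.9 and 17.3 ± 0.66 CPM in the males, and its 95% interval ran from -0.21 to 0.19. DBP averaged 80.7 ± 4.9 and 83.3 ± 12 CPM (log2 fold change 0.05, SE 0.09). PER2 differed by -0.28 on the log2 scale (SE 0.14, FDR = 0.242) and PER1 by -0.20 (SE 0.12, FDR = 0.348).

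Of the male calls, NR1D2 passed in 9 of 11 fits that left out 1 animal and CLOCK in 2 of 11, with an FDR of up to 0.105, and without sGC replicate 4 neither passed (3 of 10 at an unadjusted p under 0.05). The summed level of 5 oligodendrocyte markers was 3372 to 6387 CPM in male controls and 7358 to 12133 CPM in sGC males. All 5 markers were higher at an FDR under 0.05, as were 5.74% of all genes. In F1 females all 5 were lower in sGC animals, with log2 fold changes from -0.85 to -0.69, 0 of them at an FDR under 0.05. The part of these markers in the clock gene differences, within or between the sexes, was not tested.

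The question whether females and males of the F1 generation responded differently was addressed by an interaction, the male log2 fold change less the female one. In the same test, 4 of the 10 clock genes passed, against 31.7% of 11274 genes. CLOCK, higher in sGC females and lower in sGC males, gave -0.60 (SE 0.12, FDR = 0.00105), and ARNTL gave -0.38 (SE 0.10, FDR = 0.00714). NR1D2 gave -0.31 (SE 0.10, FDR = 0.0197) and CRY1 0.43 (SE 0.14, FDR = 0.0226). DBP gave 0.43 (SE 0.16, FDR = 0.0511). For the period genes the interactions ranged from 0.05 to 0.31 and none passed. CLOCK, ARNTL and NR1D2 passed in all 19 fits that left out 1 animal and CRY1 in 18. The female and male libraries came from separate tables, and the interaction compares differences within each.

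In F2 females, the daughters of exposed F1 males, no clock gene passed the threshold. With edgeR's quasi-likelihood test the count was 0 of 10, against 0.278% of 11132 genes. No clock gene had an unadjusted p under 0.05, beside 1789 of all genes. DESeq2 and the likelihood ratio test called 0 of the clock genes as well, beside 473 and 534 genes in all. None of the 10 was without overlap, against 8.09% of all genes. The log2 fold changes ran from -0.11 to 0.14, and their median of -0.08 stood beside 0.01 over all genes.

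ARNTL in F2 females stood at 84.7, 74.9, 84.6 and 84.4 CPM in controls and at 77.6, 84.4, 75.5 and 72.6 CPM in sGC animals, and CRY1 at 20.5, 21.5, 23.9 and 21.4 CPM and at 18.7, 23.5, 19.2 and 21.7 CPM. The groups overlapped for both genes. Their 95% intervals ran from -0.23 to 0.07 for ARNTL and from -0.28 to 0.14 for CRY1, and did not reach the changes seen in F1 females. DBP averaged 73.6 ± 3.3 and 70.8 ± 6.7 CPM (SD, n = 4 each), with an interval from -0.22 to 0.11. For PER3, at 11 to 25 reads, the interval from -0.43 to 0.71 was wide.

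The interaction between F1 and F2 females passed for ARNTL (-0.36, SE 0.10, FDR = 0.0271), 1 of 10 clock genes against 13.8% of 11166 genes. CLOCK (-0.45, FDR = 0.0507) and CRY1 (0.38, FDR = 0.0618) lay just outside. ARNTL passed in 14 of 16 fits with 1 animal left out, and lost the threshold without F2 control replicate 3 (FDR = 0.0549) and without F2 sGC replicate 4.

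In F3 females, the granddaughters of exposed F1 males, no clock gene passed either. The count was 0 of 9 in edgeR's quasi-likelihood test, against 1.34% of 11420 genes. It was 0 of 9 as well with the likelihood ratio test and with DESeq2, which called 616 and 632 genes in all. In the quasi-likelihood test 2 of 9 had an unadjusted p under 0.05. These were CRY1 and PER3, both lower in the mean of sGC animals. CRY1 stood at 28.3, 32.1, 28.9 and 32.2 CPM in controls and at 27.0, 27.5, 24.9 and 25.3 CPM in sGC females. Every sGC animal lay below every control, for this gene alone of 9 against 10.3% of all genes, but the FDR was 0.151 (log2 fold change -0.21, SE 0.07).

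PER3 stood at 9.73, 16.8, 15.4 and 12.8 CPM in F3 controls and at 10.5, 9.29, 11.6 and 8.92 CPM in sGC females. The groups overlapped through control replicate 1, which lay below 2 of the sGC animals. The log2 fold change was -0.44 (SE 0.17, FDR = 0.217), and without that control it was -0.58 with an FDR of 0.0365. That was the only 1 of 8 fits with 1 animal left out that passed. Over these fits the log2 fold change ran from -0.58 to -0.32, and the FDR reached 0.528 without control replicate 2. ARNTL stood at 69.0, 73.7, 74.6 and 73.5 CPM in controls and at 71.6, 83.2, 78.9 and 87.1 CPM in sGC females (log2 fold change 0.14, SE 0.06, FDR = 0.299). PER1, PER2 and CLOCK had log2 fold changes of -0.18, -0.21 and 0.04 and overlapping groups.

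No clock gene had an interaction that passed the threshold between F1 and F3 females or between F2 and F3 females. In edgeR's quasi-likelihood test the count was 0 of 9 each, where 0.0981% and 0.018% of all genes passed. The likelihood ratio test and DESeq2 also gave 0 of 9 each, beside 114 and 201 genes in the first comparison and 93 and 126 in the second. A single clock gene had an unadjusted p under 0.05 in the quasi-likelihood test of each comparison, CLOCK in the first (-0.32, SE 0.12) and ARNTL in the second (0.23, SE 0.09). A difference between the F1 and F3 responses of the clock genes was therefore not detectable, which does not show that they were alike. The pan-neuronal marker sum did not overlap between F3 controls (4999 to 6836 CPM) and sGC animals (7839 to 8365 CPM), and its part in the values of CRY1 was not tested.

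To ask whether the animals varied along the clock, 6 pairs of genes were correlated within each table, after the mean of each treatment group had been removed, in 21 relations. Among tissues taken at different times of day, clock transcripts that peak together vary together and those that peak at opposite times vary against each other. Only PER1 and PER2 in F1 males passed after adjustment over the 21 relations (Pearson r = 0.971, exact permutation within treatment groups, two-sided, p = 4.63e-05, adjusted p = 0.000972, 11 animals). Spearman's rho was 0.973 (exact permutation p = 4.63e-05, adjusted p = 0.000972), and r was 0.968 without the 2 animals farthest from the median of PER1.

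PER1 and PER2 also varied together in F1 females (r = 0.884, exact permutation p = 0.00521, adjusted p = 0.0547, rho = 0.952 with p = 0.00347 and adjusted p = 0.0365) and in F3 females (r = 0.899, exact permutation p = 0.0104, adjusted p = 0.0729, rho = 0.881 with p = 0.0122 and adjusted p = 0.0851), with 8 animals each. Without the 2 farthest animals, r was 0.943 and 0.810. In F2 females r was 0.209 (rho = 0.357, exact permutation p = 0.648 and 0.438, adjusted p = 0.850 and 0.632), and -0.27 without the 2 farthest animals. The smallest p that 4 and 4 animals allow in this test, 1 over 576 permutations, is 0.00174.

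**Figure D4:**
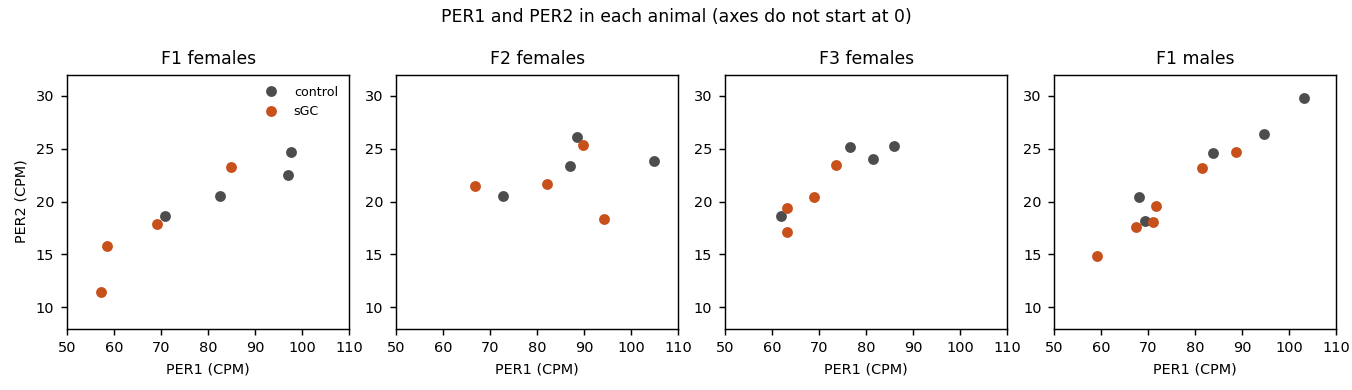
PER1 (horizontal axis) and PER2 (vertical axis) in each animal, in TMM-normalized CPM, for F1, F2 and F3 females and F1 males, control in grey and sGC in orange, with axes that do not start at 0. In F1 males the 11 animals lie along a line from 59.1 CPM of PER1 and 14.9 CPM of PER2 to 103 and 29.7 CPM, and in F2 females they do not.

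ARNTL and the genes that peak opposite to it in most tissues gave no relation that passed. ARNTL and NR1D1 had a negative r in all 4 tables, between -0.76 in F1 males and -0.09 in F3 females, and the smallest adjusted p was 0.137 (exact permutation, F1 males, rho = -0.67). ARNTL and DBP gave 0.18 and 0.49 in F1 and F2 females and -0.48 in F1 males, and ARNTL and PER3 between -0.55 in F1 males and 0.18 in F1 females. DBP and PER3, of like phase, gave 0.79, 0.53 and 0.51 in F1 females, F2 females and F1 males, and DBP and PER2 gave -0.61, 0.79 and 0.18, none with an adjusted p under 0.05. Without the 2 animals farthest from the median of the gene named first, the sign turned in several of these. The r of DBP and PER3 was then -0.06 in F1 and -0.98 in F2 females, that of DBP and PER2 0.06 in F1 females, that of ARNTL and NR1D1 0.24 in F2 females, that of ARNTL and DBP -0.14 in F1 females, and that of ARNTL and PER3 0.22 in F2 females, so that these rested on those animals.

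Over the 35 animals of all tables, as a description, the deviations of PER1 and PER2 from their group means correlated at 0.81 and those of CLOCK and NR1D2 at 0.70. NR1D1 and NR1D2, the REV-ERB paralogs, stood at -0.67, with values of -0.86, -0.71 and -0.84 in F1, F2 and F3 females and -0.06 in F1 males. NR1D1 and CLOCK stood at -0.49, with -0.79, -0.51 and -0.72 in the females and -0.10 in the males, and NR1D1 and ARNTL also at -0.49. DBP and ARNTL stood at -0.08 over the 27 animals of 3 tables. These values share libraries, their normalization and their cell composition.

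**Figure D5:**
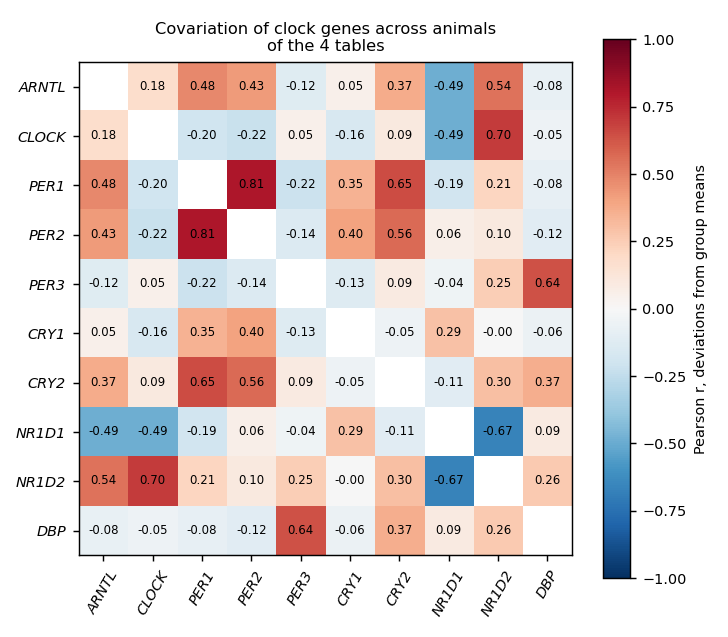
Pearson r between the clock genes (rows and columns) over the animals of the 4 tables, computed on log2 CPM after subtraction of the mean of each table and treatment group, with red for positive and blue for negative values. There are 35 animals, or 27 for pairs with DBP. The strongest positive value is that of PER1 and PER2, at 0.81, and the strongest negative one that of NR1D1 and NR1D2, at -0.67.

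Of a further 29 genes of the clock and its outputs, 23 were listed and tested in every table. In F1 females 1 of 23 passed, against 16.5% of all genes. It was GSK3B, a kinase that phosphorylates clock proteins. It averaged 189 ± 19 CPM in controls and 241 ± 12 CPM in sGC females (SD, n = 4 each), without overlap (log2 fold change 0.35, SE 0.08, FDR = 0.0212). In F2 and F3 females 0 of 23 passed (edgeR), against 0.278% and 1.34% of all genes, and 4 and 3 had an unadjusted p under 0.05. In F1 males 3 of 23 passed, against 9.22% of all genes. The cell cycle inhibitor CDKN1A rose from 18.4 ± 1.5 to 25.9 ± 4.0 CPM (FDR = 0.0118), BTRC, a subunit of the ligase that marks PER proteins for degradation, fell by 10.5% (log2 fold change -0.16, FDR = 0.0305), and LGALSL had a log2 fold change of -0.18 (FDR = 0.0388).

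The partners nearest to the core loop did not pass in any table. NPAS2, which can replace CLOCK, had log2 fold changes of -0.22, 0.03, -0.05 and -0.08 in F1, F2 and F3 females and F1 males. CIART, a repressor of the activator pair, had -0.22, -0.02, -0.13 and -0.10. TEF, of the same family as DBP, was lower in the mean of sGC animals in each table, at -0.16, -0.22, -0.20 and -0.06, with the smallest FDR, 0.167, in F3 females. HLF, the other member of that family, had 0.33, -0.13, -0.13 and -0.09, and NFIL3, which opposes them, 0.02, -0.20, 0.06 and 0.08. BHLHE41 was not analysed here.

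Between F1 females and males, 7 of the 23 genes had an interaction that passed the threshold, beside 31.7% of all genes. GSK3B (-0.48, FDR = 0.000936), CSNK1E (-0.21), FBXW11 (-0.19), WEE1 (-0.43) and LGALSL (-0.24) moved to lower values in males relative to females, and CDKN1A (0.71) and PPARA (0.44) to higher ones. Between F1 and F2 females GSK3B (-0.47, FDR = 0.0193) and WEE1 (-0.57, FDR = 0.0427) passed, and between the other generations 0 of 23 did, with an unadjusted p under 0.05 in 3 and 1.

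Genes that respond to the hormone or to recent activity were examined beside the period genes. Of 7 glucocorticoid-induced genes tested, among them FKBP5 and TSC22D3, 0 passed in edgeR's quasi-likelihood test in each generation of females (2, 1 and 0 with an unadjusted p under 0.05) and 1 in F1 males. Of all genes, 16.5%, 0.278%, 1.34% and 9.22% passed in F1, F2 and F3 females and F1 males. An unadjusted p under 0.05 was found for 3858 of 11268 genes in F1 and 1789 of 11132 in F2 females. In F1 females the log2 fold changes of the 7 ran from -0.79 to 0.39, with a smallest FDR of 0.0819. The paper lists PDK4, 1 of the 7, as significantly lower in sGC F1 females and significantly higher in sGC F1 males. Its calls used the likelihood ratio test, unlike the count of 0 given here for F1 females. Of 8 immediate early genes, such as FOS and EGR1, 0 passed in any table, with an unadjusted p under 0.05 in 1, 1, 0 and 0. In F1 females, however, 7 of the 8 were lower in sGC animals, with a smallest FDR of 0.0567. Their median log2 fold change was -0.44 there, beside -0.03 over all genes, and its part in the clock gene differences was not tested. The summed levels of both lists overlapped between sGC and control animals in all 4 tables. Of 5 temperature-responsive genes, 1 passed in F1 females, the chaperone HSP90AA1 (log2 fold change 0.27, SE 0.05, FDR = 0.0130), and 0 in each other table (0, 1 and 1 with an unadjusted p under 0.05 in F2 females, F3 females and F1 males). In F1 females 3 of the 5 were higher and 2 lower in sGC animals, with a median log2 fold change of 0.03, so that their sum does not stand for each gene. The summed level of the 5 did not overlap between F1 female controls (5078 to 5662 CPM) and sGC animals (5705 to 5898 CPM). Of single genes, 23.2% did not overlap there either, and the part of this sum in the clock gene differences was not tested. FKBP5 averaged 13.2 and 13.8 CPM in control and sGC F1 females.

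Outside the 10 clock genes, the gene that followed ARNTL most closely over the 35 animals was ADIPOR1, an adiponectin receptor, with an r of 0.74 between deviations from group means, followed by WDR26 (0.72), CIPC (0.70), CNEP1R1 (0.70) and THSD7A (0.69). CIPC, the third of 10716 genes and itself among the further clock genes above, encodes a protein that binds CLOCK and inhibits the activator pair. The lowest values were those of AGAP3 (-0.78), TMEM59L (-0.77) and PNOC (-0.76), the precursor of nociceptin. For DBP, over the 27 animals of 3 tables, the highest values were those of HRH3 (0.80), CA4 (0.77), PITRM1 (0.75), PLAC9 (0.74) and PLXND1 (0.74), and the lowest those of DNAJC8 (-0.83), RCAN3 (-0.80) and FANCD2 (-0.75). Of the clock genes, PER3 was closest to DBP, at 0.64, which is rank 72 against 10716 genes. NR1D2 was closest to ARNTL, at 0.54, which is rank 119. The values describe likeness over these libraries and carry no test.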

How the data were processed

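RNA-seq libraries of 35 guinea pigs were used. The authors deposited the raw counts of reads per gene in 4 tables, 1 for each generation of females and 1 for F1 males. The submitters' processing notes name TopHat2 and edgeR, and the genome build is not given in the sources used here. Beside the counts, the authors deposited log2 fold changes and mean log2 CPM, a likelihood ratio score, and p-value and FDR columns of their own comparison, none of which was used.

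Analysis of the counts used edgeR 4.0.16 under R 4.3.3 (filterByExpr with a minimum count of 10 and a minimum total of 15, TMM normalization, quasi-likelihood test). Each table was fitted alone over all of its genes, interactions were fitted over 2 tables at a time, and the method of Benjamini and Hochberg gave the FDR. The study names the likelihood ratio test, which was run as an alternative together with DESeq2 1.42.0, other normalizations, no filter, a replicate block, and fits with 1 animal left out. Correlations used log2 CPM with a prior count of 2 and exact permutations in Python 3.11.15.

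The clock genes and all lists were chosen with earlier results of these data known. Named were all members, the further clock genes that passed a test, NPAS2, BHLHE41, CIART, TEF, HLF and NFIL3, and the 5 genes most like and the 3 least like ARNTL and DBP. For DBP the likeness was taken over 3 tables. Of the 10 symbols, 9 matched RefSeq (mCavPor4.1). No coordinates or sequences are given. Library totals limit precision mainly for PER3.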

Additional observations from a re-analysis of the deposited data

Results flagged for a closer look

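The response to sGC differed between F1 females and F1 males for 4 clock genes, by a test of the difference itself (male less female log2 fold change, edgeR's quasi-likelihood test, FDR under 0.05), which 31.7% of all 11274 genes also passed. The differences were -0.602 for CLOCK, -0.385 for ARNTL, -0.314 for NR1D2 and 0.434 for CRY1. CLOCK, ARNTL and NR1D2 were higher in sGC than in control females in the mean and lower in the mean of sGC males. CRY1 was lower in sGC females and close to the controls in males.

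ARNTL also differed in its response between F1 and F2 females, by -0.361 (F2 less F1, same test, passed by 13.8% of all genes).

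Among 78 groups of 4 to 6 animals, 1 held an animal far from the others for a clock gene, where chance alone marks about 1 group in 20. ARNTL in F2 control replicate 2 was 74.9 CPM, with the remaining controls between 84.4 and 84.7 CPM.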

How the results depend on the processing

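With the likelihood ratio test, DESeq2, RLE or upper-quartile normalization or no filter on low counts, CRY1, ARNTL and CLOCK stayed past the threshold in F1 females, and CLOCK and NR1D2 in F1 males, and the likelihood ratio test added DBP in F1 females. Normalization moved the median of all genes by less than 0.1 on the log2 scale. Whether the replicate numbers of the labels pair the animals is not given in the sources used here. Deviations of same-numbered animals correlated between -0.33 and 0.34, which cannot decide it with so few animals. With the replicate block, 1 clock gene (CRY1) and 1080 genes differed in F1 females, 53 genes in F2 and 67 in F3 females, 0 genes had an interaction between F1 and F3 females, 9 between F2 and F3 females, and 0 clock genes between F1 and F2 females.

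The number of differing genes in F2 females, 31, was 534 with the likelihood ratio test, 473 with DESeq2, 70 with upper-quartile normalization and 76 without a filter. In F3 females it was 153, and 616 and 632 with the likelihood ratio test and DESeq2. The interaction counts between F1 and F3 females were 114, 201 and 18 with the likelihood ratio test, DESeq2 and upper-quartile normalization (11 as reported), and between F2 and F3 females 93, 126 and 4, and 4 with RLE normalization (2 as reported). Clock genes with an interaction between F1 and F2 females numbered 2 with each of these tests and normalizations and without a filter, ARNTL in each, with CLOCK, or with CRY1 under upper-quartile normalization. The cause of these differences was not tested.

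With 1 animal left out, the differing genes numbered 613 to 2115 in F1 females, 0 to 487 in F2 females, 20 to 598 in F3 females and 667 to 1613 in F1 males. The differing clock genes numbered 0 to 3 in F1 females, 0 to 1 in F3 females and 0 to 2 in F1 males. The interactions numbered 808 to 1906 between F1 and F2 females (0 to 3 clock genes), 1 to 97 between F1 and F3 females and 0 to 44 between F2 and F3 females.

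Values close to 0 changed sign. Under upper-quartile normalization these were CRY2 in F3 females (-0.0038) and the NR1D1 interaction of F1 and F2 females (0.033). With 1 animal left out, log2 fold changes ranged from -0.046 to 0.13 for CRY2 in F1 females, from -0.17 to 0.0036 for PER1 and from -0.021 to 0.29 for PER3 in F2 females, from -0.14 to 0.0059 for NR1D2, from -0.014 to 0.11 for CLOCK and from -0.010 to 0.063 for CRY2 in F3 females, and from -0.085 to 0.066 for CRY1, from -0.020 to 0.020 for NR1D1 and from -0.019 to 0.10 for DBP in F1 males. Interactions ranged from -0.16 to 0.0038 for CRY2, from -0.098 to 0.23 for PER2 and from -0.0036 to 0.049 for NR1D1 between F1 females and males, and from -0.047 to 0.020 for NR1D1 between F1 and F2 females. Between F1 and F3 females they ranged from -0.11 to 0.047 for CRY2, from -0.012 to 0.30 for PER2 and from -0.23 to 0.13 for PER3, and between F2 and F3 females from -0.0097 to 0.13 for NR1D2 and from -0.066 to 0.016 for NR1D1.

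Of the correlations, 2 passed with Spearman's rho in place of Pearson's r, and 1 to 3 when 1 animal was left out. The r of ARNTL and PER3 in F3 females was -0.0031 with RLE normalization and -0.119 with Spearman's rho, and in F2 females it was 0.136 on CPM without TMM. With 1 animal left out, r ranged for ARNTL and PER3 from -0.373 to 0.386 in F1, from -0.525 to 0.035 in F2 and from -0.477 to 0.283 in F3 females, for PER1 and PER2 from -0.138 to 0.698 and for DBP and PER3 from -0.425 to 0.767 in F2 females, and for ARNTL and NR1D1 from -0.332 to 0.053 in F3 females.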
